A study of Mus musculus with 8 samples.

Results

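The genes described here make cholesterol and fatty acids or control that synthesis. They are 32 genes out of 26590 gene symbols in the deposited table, taken by name from the pathways and not by a limit on their values. Earlier results of these data were known when they were chosen. All 32 were found. Each gene is described by its most abundant transcript row, by the mean of both genotypes. The study profiled whole fetal hearts by total RNA sequencing to ask how the absence of the type 3 deiodinase, the enzyme that inactivates thyroid hormones, affects cardiac gene expression. One group is 4 hearts of *Dio3+/+* fetuses and the other is 4 hearts of *Dio3-/-* fetuses, in which *Dio3* is inactive in every tissue. All 8 are of the C57BL/6J strain, each from its own fetus, and the labels name no treatment. The heading of every sample gives E13.5, but the age field of *Dio3-/-* hearts 3 and 4 gives E18.5, and the methods of the study give another day, so age could differ between the genotypes and the effect of that cannot be told apart from genotype here.

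The table holds, for each genotype, the authors' mean in RPKM (a read number corrected for the length of the transcript and the size of the library) and the coefficient of variation, which is the SD between hearts divided by the mean. Values of single hearts and read totals are not part of it, so the depth behind each value is unknown from the table and no heart could be set apart. The tissue label was checked by heart transcripts, among which *Tnnt2*, cardiac troponin T, was at 1212.43 RPKM in *Dio3+/+* against 1280.77 RPKM in *Dio3-/-* hearts. *Dio3* itself was at 0.35 RPKM (coefficient of variation 1.23) and 0.13 RPKM (0.76), too low to check the labels. In whole hearts, fewer cells of a type and less RNA per cell cannot be told apart.

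Cells make cholesterol from acetyl-CoA through mevalonate, farnesyl diphosphate, squalene and lanosterol. Fatty acids are built from the same acetyl-CoA by carboxylation, chain extension, elongation and desaturation. Transcription of both routes is driven by the SREBP factors, which the escort protein SCAP carries from the endoplasmic reticulum to the Golgi for cleavage when sterols are low, and which the INSIG proteins hold back when sterols are high. Thyroid hormone is a known regulator of lipid synthesis in liver, where *Thrsp*, named for its response to thyroid hormone, is a classic target. A developing heart needs sterols and phospholipids for new membrane.

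None of the 31 genes that could be tested passed limma's test of the genotype difference at an adjusted p under 0.05. The test used log2(RPKM + 0.5) and all transcript rows that were above 1 RPKM in either genotype. Over all 14657 genes tested in the same way, 2.29% passed, 1.91% with a higher and 0.382% with a lower level in *Dio3-/-* hearts. At an unadjusted p under 0.05, 4 of the 31 genes passed (*Pmvk*, *Hsd17b7*, *Insig1* and *Stard4*), all higher in *Dio3-/-* hearts, which is 12.9% against 19.7% of all genes tested. Of all genes tested, 15.2% passed that looser limit as higher and 4.46% as lower. With Welch's test, which does not moderate the spread, none of the 31 passed after adjustment and 2 passed before it.

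The levels of these genes in both genotypes lay close together. The ratio of the *Dio3-/-* to the *Dio3+/+* mean went from 0.875 for *Tm7sf2* to 1.20 for *Pmvk*, and 23 of the 31 genes were within 1.1-fold. The 95% confidence interval of the difference was taken on RPKM + 0.5. It lay within 1.5-fold in either direction for all 31 genes, and within 1.25-fold for 21. The added value shrinks the fold changes of low genes. For *Tm7sf2*, the log2 fold change was -0.13 with 0.5 added and -0.18 with 0.1 added. The intervals are therefore no bounds on the RPKM ratio of such low genes. The median log2 fold change was 0.03 and the median size of a change, whatever its direction, was 0.06, against 0.04 and 0.09 over all genes tested. In 23 of the 31 genes (74.2%) the log2 fold change was above 0, against 63.3% of all genes tested. Of the 31, 15 lay above 0.04, the median log2 ratio over the rows tested. Centring all rows on that median turned the sign of 8 of the 31 genes, each within 0.04 of 0. The size of change that would have passed, also on RPKM + 0.5, depended on the spread between hearts. It was 1.15-fold for *Ggps1*, the smallest, 1.30-fold at the median and 1.88-fold for *Scd1*, the largest, and a 1.5-fold change would have passed for 26 of the 31 genes.

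**Figure D1:**
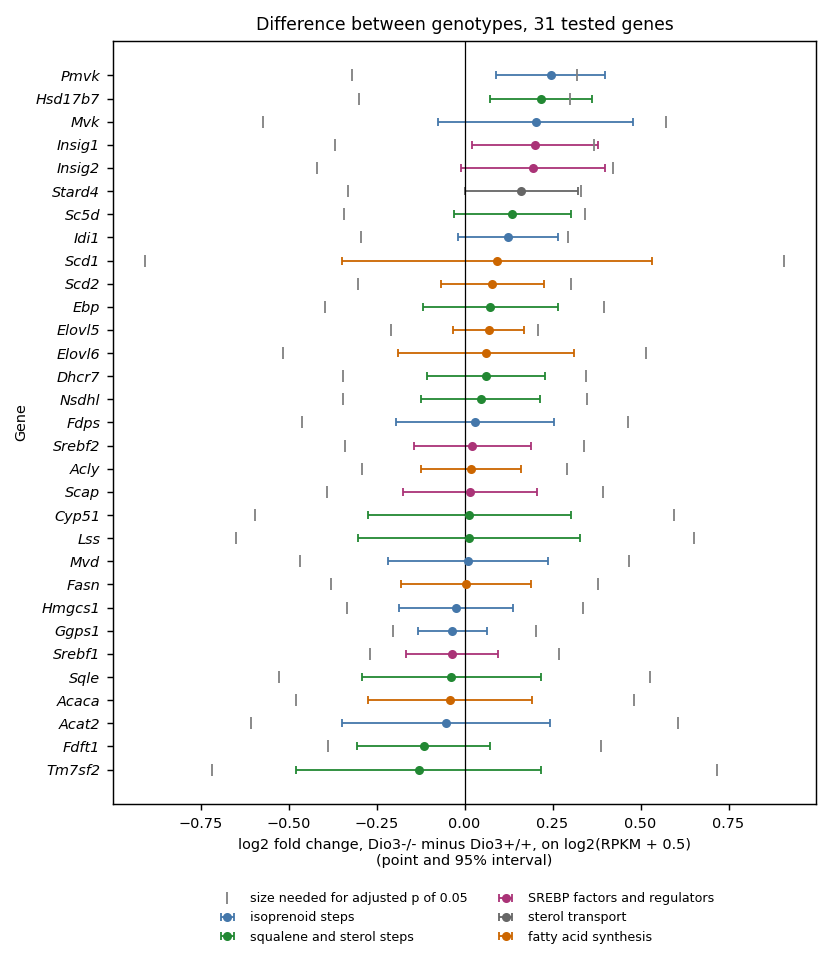
Log2 fold change of each of the 31 tested genes (points, *Dio3-/-* minus *Dio3+/+*, on log2(RPKM + 0.5)) with its 95% confidence interval (bars), coloured by role; grey ticks mark the size that would have given an adjusted p of 0.05. Every point lies between -0.13 and 0.24, inside its grey ticks, and 4 of the intervals exclude 0.

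The first steps of the pathway lead from acetyl-CoA to farnesyl and geranylgeranyl diphosphate. None of the 8 genes for these steps passed the test. *Hmgcs1*, the cytosolic HMG-CoA synthase, was the most abundant of them, at 38.43 RPKM in *Dio3+/+* against 37.78 RPKM in *Dio3-/-* hearts, with coefficients of variation of 0.10 and 0.05, which stand in brackets after each level from here on. Its fold change, here and for the genes below taken on RPKM + 0.5, had a 95% interval from 0.878 to 1.10. *Acat2*, the cytosolic thiolase that starts the route, was at 23.17 RPKM (0.21) and 22.32 RPKM (0.08). Relative to *Dio3+/+* hearts these differences were -1.69% and -3.67%, each less than 1 SD between hearts.

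The next 3 enzymes convert mevalonate to isopentenyl diphosphate. Mevalonate kinase, *Mvk*, was at 4.70 RPKM (0.20) in *Dio3+/+* against 5.48 RPKM (0.09) in *Dio3-/-* hearts, with an interval from 0.949-fold to 1.39-fold. Phosphomevalonate kinase, *Pmvk*, had the highest fold change of all 31 genes, from 7.14 RPKM (0.06) to 8.55 RPKM (0.08). That is 0.24 on the log2 scale, with a 95% interval from 0.09 to 0.40 and an adjusted p of 0.097 by limma. The means of *Pmvk* differed by more than the sum of both SDs, and how many of all genes do so was not counted. *Mvd*, the decarboxylase of the next step, was at 6.41 RPKM (0.11) and 6.46 RPKM (0.13).

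The remaining isoprenoid genes were also near their *Dio3+/+* means. *Idi1*, the isomerase that makes dimethylallyl diphosphate, was at 23.26 RPKM (0.06) and 25.38 RPKM (0.07), with an adjusted p of 0.338 by limma. *Fdps*, farnesyl diphosphate synthase, was at 18.88 RPKM (0.14) and 19.28 RPKM (0.09). *Ggps1*, which makes the geranylgeranyl group that anchors small GTPases, was at 20.63 RPKM (0.03) and 20.13 RPKM (0.03), and its interval of 0.912-fold to 1.05-fold was the only one inside 1.1-fold.

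The promoter of *Hmgcs1* is shown because it carries the letters through which SREBP factors are known to act, in a gene whose level was nearly equal in both genotypes. The stretches here were read from RefSeq promoter sequences of build GRCm38.p6, which cover 250 bases before and 50 bases after each gene start and were found for 26 of the 32 genes, without *Sqle*, *Fdps*, *Fdft1*, *Scd1*, *Scd2* and *Stard4*. The build behind the deposited rows is not given in the sources used here, and these coordinates belong to the promoter sequences alone. Capitals mark the match to TCACNCCAC, the sterol regulatory element, which starts 137 bases before the gene start. The whole stretch printed lies at chr13:119690174-119690262 on the plus strand.
Hmgcs1: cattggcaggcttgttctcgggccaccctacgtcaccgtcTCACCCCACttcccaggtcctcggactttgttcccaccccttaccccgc

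Searched on both strands, that element was in 1 of 34 promoters of the matched genes (2.94%) and in 1.24% of all 32851 promoters. CACGTG, the E-box that SREBP factors can also bind, was in 7 of the 34 (20.6%), from 6 genes, and in 7.15% of all promoters. CCAAT, the box of NF-Y, a common partner of SREBP factors, was in 23 of the 34 (67.6%) and in 37.4% of all promoters. None of the 34 held an AGGTCA direct repeat with 4 bases between the copies, the arrangement of a thyroid hormone response element, which 0.0152% of all promoters held. The motifs were counted separately, and a promoter could hold several of them. These matches describe letters in a window of 300 bases and no binding. *Dhcr7*, *Elovl5*, *Hsd17b7*, *Insig1*, *Sc5d* and *Scap* were the 6 genes with the E-box.

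Of the 10 genes for the steps from farnesyl diphosphate to cholesterol, none passed the test. The entry into sterols was at similar levels in both genotypes. *Fdft1*, squalene synthase, was at 11.62 RPKM (0.12) in *Dio3+/+* against 10.68 RPKM (0.06) in *Dio3-/-* hearts, with a 95% interval of the log2 fold change from -0.30 to 0.07. *Sqle*, squalene epoxidase and a rate-limiting step, was at 19.69 RPKM (0.17) and 19.17 RPKM (0.09). *Lss*, which closes the ring to lanosterol, was at 3.18 RPKM (0.22) and 3.21 RPKM (0.14).

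None of the enzymes that turn lanosterol into cholesterol passed, with intervals that differ in width. *Cyp51*, lanosterol demethylase, was at 10.19 RPKM (0.22) in *Dio3+/+* against 10.29 RPKM (0.04) in *Dio3-/-* hearts. *Tm7sf2*, a sterol reductase, was the lowest tested gene, at 1.12 RPKM (0.32) and 0.98 RPKM (0.08), with a log2 fold change of -0.13 that the added 0.5 RPKM shrinks. *Nsdhl* and *Ebp*, which remove a methyl group and shift a double bond, are both X-linked genes. *Nsdhl* was at 7.96 RPKM (0.11) and 8.23 RPKM (0.03) and *Ebp* at 4.35 RPKM (0.10) and 4.60 RPKM (0.09). The series is described as male hearts, yet *Xist*, which coats the silenced X in female cells, was at 35.64 RPKM (0.99) and 39.97 RPKM (0.55). The Y-linked *Eif2s3y* was at 9.38 RPKM (1.04) and 7.29 RPKM (1.46), so each genotype held RNA of female and of male cells. The part of fetal sex in the levels of *Nsdhl* and *Ebp* was not tested.

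*Hsd17b7*, the ketosteroid reductase that follows *Nsdhl*, had the highest fold change of the sterol genes. It was at 10.82 RPKM (0.06) in *Dio3+/+* against 12.65 RPKM (0.07) in *Dio3-/-* hearts. The log2 fold change was 0.22, with a 95% interval from 0.07 to 0.36 and an adjusted p of 0.110 by limma. As for *Pmvk*, the means of *Hsd17b7* differed by more than the sum of both SDs. *Sc5d*, the desaturase before the last step, was at 12.02 RPKM (0.11) and 13.25 RPKM (0.03), with an adjusted p of 0.371 by limma. *Dhcr7*, which reduces 7-dehydrocholesterol to cholesterol, was at 8.66 RPKM (0.11) and 9.05 RPKM (0.03). The promoter stretches of *Hsd17b7* and *Insig1* are given because these are the 2 genes with an E-box among the 4 that passed the unadjusted limit. Of the other genes among the 4, no promoter was found for *Stard4*, and the promoter of *Pmvk* was searched and held no E-box. *Dhcr7*, *Elovl5*, *Sc5d* and *Scap* also have the E-box and did not pass that limit. Capitals mark CACGTG, which starts 143 bases before the gene start of *Hsd17b7* and 101 bases before that of *Insig1*. The whole stretches printed lie at chr1:169969303-169969388 on the minus strand and at chr5:28071271-28071356 on the plus strand.
Hsd17b7: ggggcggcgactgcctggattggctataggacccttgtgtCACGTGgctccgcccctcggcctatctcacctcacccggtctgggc
Insig1: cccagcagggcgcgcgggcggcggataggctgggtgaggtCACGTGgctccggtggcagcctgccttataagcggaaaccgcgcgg

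The control genes of the pathway did not pass the test either. *Srebf2*, whose product chiefly drives sterol genes, was at 36.18 RPKM (0.11) in *Dio3+/+* against 36.75 RPKM (0.03) in *Dio3-/-* hearts. *Srebf1*, whose product chiefly drives fatty acid genes, was at 10.83 RPKM (0.07) and 10.56 RPKM (0.03). Per length, *Srebf2* was thus 3.34 times as abundant as *Srebf1* in *Dio3+/+* and 3.48 times in *Dio3-/-* hearts. *Scap* was at 10.81 RPKM (0.11) and 10.93 RPKM (0.08). SREBP activity is set by cleavage of the proteins, which these levels do not measure.

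Both INSIG transcripts had higher means in *Dio3-/-* hearts, without passing the adjusted test. *Insig1*, itself an SREBP target, was at 9.35 RPKM (0.11) in *Dio3+/+* against 10.81 RPKM (0.06) in *Dio3-/-* hearts. Its log2 fold change of 0.20 had a 95% interval from 0.02 to 0.38 and an adjusted p of 0.214 by limma. *Insig2* was at 7.90 RPKM (0.11) and 9.11 RPKM (0.10), and its log2 fold change of 0.19 had a 95% interval from -0.01 to 0.40 and an adjusted p of 0.290 by limma. The ratio of *Insig1* to *Insig2* was 1.18 in *Dio3+/+* and 1.19 in *Dio3-/-* hearts. *Stard4*, which carries cholesterol between membranes, was at 7.85 RPKM (0.08) and 8.84 RPKM (0.07), with a log2 fold change of 0.16 and an adjusted p of 0.263 by limma. For these 3 genes the difference between the means was smaller than the sum of both SDs.

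Of the 8 genes for fatty acid synthesis, desaturation and elongation, 7 were tested and none passed, even before adjustment. *Acly*, which cleaves citrate to cytosolic acetyl-CoA, was at 31.34 RPKM (0.07) in *Dio3+/+* against 31.76 RPKM (0.06) in *Dio3-/-* hearts. *Acaca*, the carboxylase that makes malonyl-CoA, was at 10.47 RPKM (0.17) and 10.15 RPKM (0.04). *Fasn*, fatty acid synthase, was at 21.88 RPKM (0.13) and 21.94 RPKM (0.01), the smallest relative difference of all 31 genes. Each of these 3 differences along the route from citrate to palmitate was smaller than 1 SD between *Dio3+/+* hearts.

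Desaturases and elongases differed widely in level and little between genotypes. *Scd2*, the stearoyl-CoA desaturase abundant in embryonic tissues, was the most abundant of all 32 genes, at 137.18 RPKM (0.09) in *Dio3+/+* against 144.90 RPKM (0.03) in *Dio3-/-* hearts. It alone made up 23.8% and 24.3% of the RPKM summed over the 32 genes. *Scd1*, its paralog, was at 4.81 RPKM (0.35) and 5.16 RPKM (0.11). *Scd2* was 28.5 times as abundant as *Scd1* per length in *Dio3+/+* and 28.1 times in *Dio3-/-* hearts, and since only uniquely mapping reads were kept, reads that fit both of these similar genes would count for neither. *Elovl5*, which extends polyunsaturated chains, was at 45.85 RPKM (0.04) and 48.09 RPKM (0.03). *Elovl6*, which extends palmitate, was at 8.51 RPKM (0.19) and 8.90 RPKM (0.02).

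*Thrsp* was the 1 gene not tested, since it was below 1 RPKM in both genotypes. It was at 0.23 RPKM (0.51) in *Dio3+/+* against 0.15 RPKM (0.33) in *Dio3-/-* hearts, so no difference was detectable at this level. In these hearts the classic hepatic target of thyroid hormone was the least abundant of the 32 genes.

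**Figure D2:**
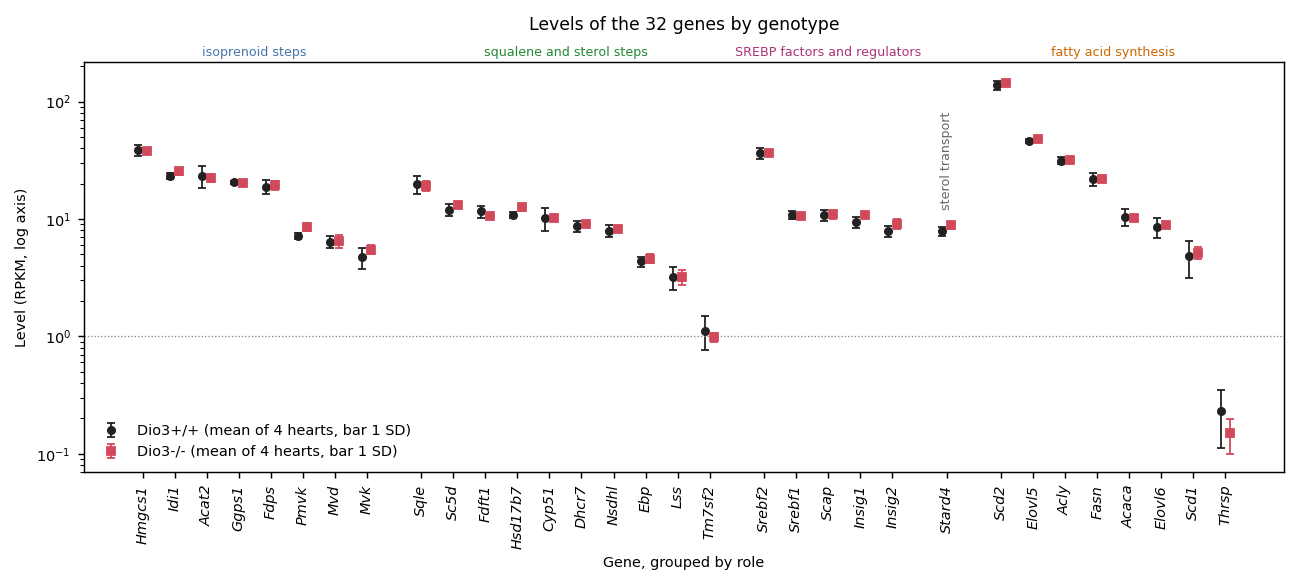
Level of each of the 32 genes in RPKM (log axis) as the authors' mean of 4 *Dio3+/+* hearts (black circles) and 4 *Dio3-/-* hearts (red squares), with bars of 1 SD calculated from the deposited coefficient of variation; genes are grouped by role and the dotted line is 1 RPKM. The paired symbols lie close together over a range from 0.15 RPKM for *Thrsp* to 144.90 RPKM for *Scd2*.

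The order of the genes by level was much the same in both genotypes. In *Dio3+/+* hearts 5 genes were above 30 RPKM, in the order *Scd2*, *Elovl5*, *Hmgcs1*, *Srebf2* and *Acly*, and 18 were above 10 RPKM. The first 9 places were held by the same genes in the same order in *Dio3-/-* hearts. *Hmgcs1* and *Srebf2*, at the third and the fourth place, differed by less than their SDs. Of the 32 genes, 24 moved by at most 1 place, and the largest move was 4 places, by *Insig1*.

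The spread between hearts was wider in *Dio3+/+* than in *Dio3-/-* hearts for most of these genes. The coefficient of variation was lower in *Dio3-/-* hearts for 26 of 31 genes (83.9%), equal for 1 and higher for 4, while it was lower for 65.4% of all genes tested. Its median over the 31 genes was 0.11 in *Dio3+/+* and 0.06 in *Dio3-/-* hearts, against 0.09 and 0.06 over all genes tested. In *Dio3+/+* hearts it went from 0.03 for *Ggps1* to 0.35 for *Scd1*, and 9 genes were at 0.15 or more. These 9 were *Scd1*, *Tm7sf2*, *Cyp51*, *Lss*, *Acat2*, *Mvk*, *Elovl6*, *Sqle* and *Acaca*, and in *Dio3-/-* hearts the highest value was 0.14, for *Lss*. A coefficient of variation from 4 hearts is imprecise, and no test of the spread was made. Whether 1 *Dio3+/+* heart sets the wide values could not be seen in the genotype summaries.

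**Figure D3:**
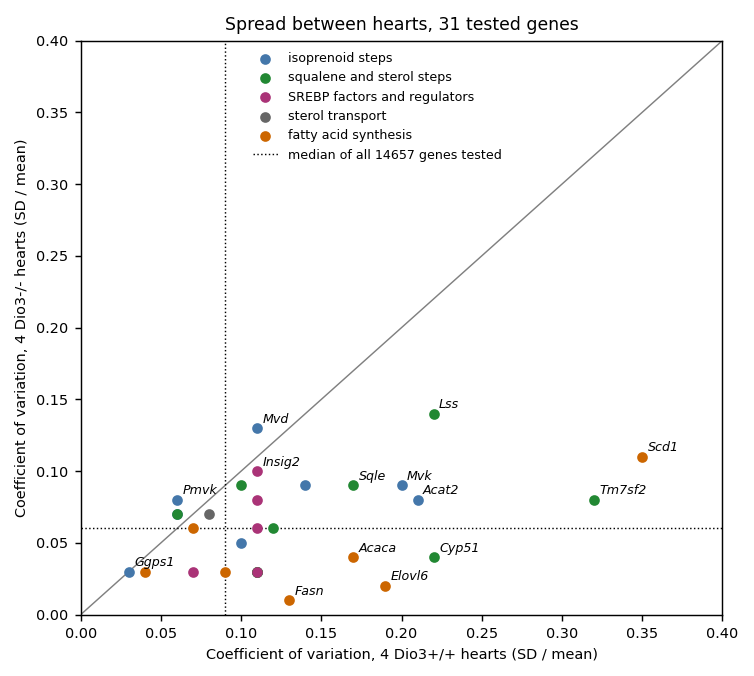
Coefficient of variation (SD divided by mean) between 4 *Dio3+/+* hearts (horizontal axis) and between 4 *Dio3-/-* hearts (vertical axis) for the 31 tested genes, coloured by role, some of which share a point; the grey line marks equal values and the dotted lines the medians of all genes tested, 0.09 and 0.06. Most points lie below the grey line, and 9 reach 0.15 on the horizontal axis while none does on the vertical axis.

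The 32 genes had 66 transcript rows, from 1 to 5 per gene, and rows of a gene share reads. Of the 62 rows tested, none had an adjusted p under 0.05, against 703 of all 32703 rows, and 11 had an unadjusted p under 0.05. The share of all rows at the unadjusted limit was not counted, and by gene it was 19.7%. The 3 rows of *Pmvk* had log2 fold changes from 0.24 to 0.28, with a lowest adjusted p of 0.060 by limma, and the 4 rows of *Insig2* from 0.19 to 0.24. The 3 rows of *Hmgcs1* went from -0.10 to -0.02 and those of *Ggps1* from -0.12 to -0.03. In all genes with several tested rows except *Acly*, the rows had the same sign, and the widest range within a gene was 0.09, for *Acaca*. The choice of row changed no call at an adjusted p under 0.05. It did change which genes passed the unadjusted limit, since of the 11 rows 3 belong to *Insig2* and 1 to *Ggps1*, where it was lower, while the other row of *Stard4* did not pass.

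Few other genes of these pathways passed the test. Of 83 tested genes in 5 further lists, 1 passed, which is 1.20% against the 2.29% of all genes, and their median log2 fold change was 0.06. At the unadjusted limit 26 of the 83 passed, 20 as higher and 6 as lower, which is 31.3% against 19.7% of all genes tested. Among 13 other sterol and isoprenoid genes none passed after adjustment and 5 (38.5%) did before it. *Pdss1*, which makes the side chain of coenzyme Q, had the lowest adjusted p of that list (0.065 by limma), at 7.03 RPKM (0.12) and 9.07 RPKM (0.06).

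Of the genes that process SREBP factors or take up, move and export sterols, 1 passed. None of 12 processing genes passed after adjustment. Before it 3 did (25% against 19.7% of all genes tested), 1 as higher and 2 as lower. *Erlin2*, a membrane protein of the endoplasmic reticulum, was at 17.92 RPKM (0.05) in *Dio3+/+* against 15.69 RPKM (0.03) in *Dio3-/-* hearts. *Vcp*, a segregase of protein degradation, was at 156.80 RPKM (0.03) and 169.05 RPKM (0.04). Among 17 genes of sterol uptake, trafficking and efflux, *Lrp8* alone passed (5.88% against 2.29% of all genes tested). At the unadjusted limit 2 of the 17 passed (11.8% against 19.7%), each as higher. *Lrp8*, a receptor of the LDL receptor family that binds reelin and apolipoprotein E, rose in *Dio3-/-* hearts, to 2.16 RPKM (0.16) from 1.10 RPKM (0.16). The size was 0.73 on the log2 scale with an SE of 0.12, and limma gave an adjusted p of 0.020. *Lrp8* did not pass Welch's test calculated from the rounded summaries, nor among rows with a mean above 5 RPKM, which leave it out. The study's own list of differentially expressed genes, from Welch's test, holds *Lrp8* and also *Mecr*, which is described below.

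Lists next to fatty acid synthesis held no gene that passed. Of 25 other genes of fatty acid synthesis, desaturation and elongation, 8 passed the unadjusted limit (32% against 19.7% of all genes), 6 as higher and 2 as lower. *Mecr*, the mitochondrial enoyl reductase, was at 4.60 RPKM (0.07) in *Dio3+/+* against 5.71 RPKM (0.04) in *Dio3-/-* hearts, with an adjusted p of 0.057 by limma, and *Fads2*, a desaturase of polyunsaturated chains, was at 40.93 RPKM (0.11) and 34.55 RPKM (0.11). The list of 16 genes of triglyceride and phospholipid synthesis had the highest median log2 fold change, 0.15, with 14 genes above 0 (87.5% against 63.3% of all genes tested) and 8 past the unadjusted limit (50% against 19.7%), 7 of them higher. Its lowest adjusted p was that of *Pcyt1a*, the rate-limiting enzyme of phosphatidylcholine synthesis, at 17.13 RPKM (0.02) and 19.73 RPKM (0.04), with an adjusted p of 0.058 by limma. On the lower side of this list stood *Lpin2*, a phosphatidate phosphatase, at 7.96 RPKM (0.09) and 6.91 RPKM (0.09).

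**Figure D4:**
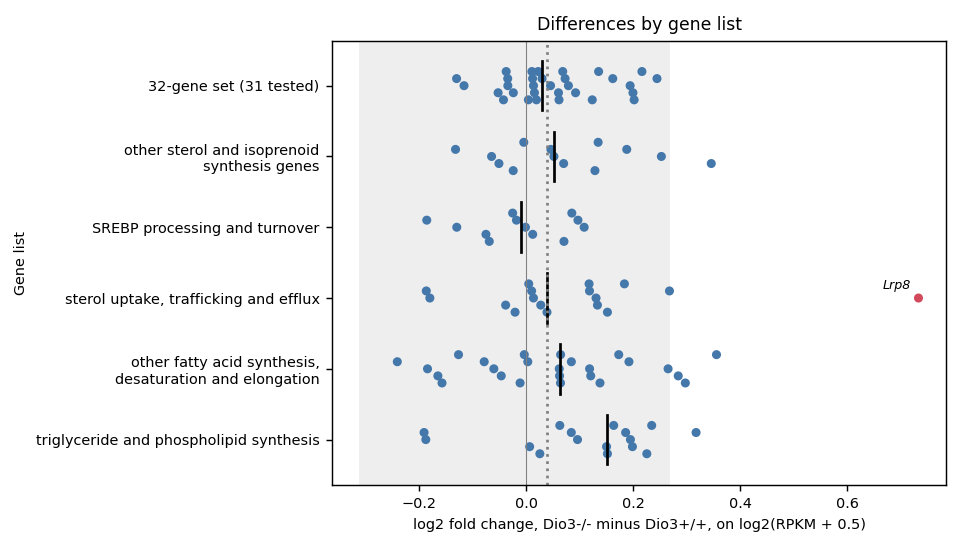
Log2 fold change (*Dio3-/-* minus *Dio3+/+*, on log2(RPKM + 0.5)) of each tested gene in the 32-gene set and in 5 further lists (points; red where the adjusted p was under 0.05), with the median of each list (black lines), the median of all genes tested (dotted line) and their range from the 5th to the 95th percentile, -0.31 to 0.27 (grey). All 31 genes of the set lie within the grey range, and *Lrp8* is the red point.

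Markers of liver and blood cells in the dissected hearts also had unequal means. All 10 hepatocyte markers listed (*Alb*, *Afp*, *Apoa1*, *Apoa2*, *Apob*, *Ttr*, *Ahsg*, *Fgb*, *Fgg* and *Serpina1a*) had higher means in *Dio3-/-* hearts, with a summed level of 16.55 RPKM in *Dio3+/+* against 110.73 RPKM in *Dio3-/-* hearts and median coefficients of variation of 1.02 and 1.12. Each of the 10 passed the unadjusted limit (100% against 19.7% of all genes tested) and none passed the adjusted test. Of the red cell markers, *Hbb-bh1*, an embryonic globin, fell from 317.82 RPKM (0.31) to 110.93 RPKM (0.46), with an adjusted p of 0.047 by limma, a call lost under 5 of the alternatives. *Hbb-b1*, *Hba-x* and *Alas2* also had lower means in *Dio3-/-* hearts, without passing the adjusted test, and *Hbb-b1* was at 9842.95 RPKM (0.40) and 3549.92 RPKM (0.54). All 5 red cell markers tested passed the unadjusted limit as lower. Of 7 adipocyte markers, *Fabp4* and *Lpl*, which heart cells also express, were tested and did not pass, and *Adipoq*, *Plin1*, *Cidec*, *Lep* and *Pparg* were below 1 RPKM in both genotypes. Of 5 macrophage markers found, *Lyz2* and *Lyz1*, a pair of closely related genes, rose (40% against 2.29% of all genes tested). The call of *Lyz1* was lost under the same 5 alternatives, and *Emr1*, *Csf1r* and *Cd68* did not pass. Of 7 cardiomyocyte markers, *Myh6* and *Ryr2* rose (28.6% against 2.29%) and *Myh7*, *Tnnt2*, *Actc1*, *Nkx2-5* and *Myl7* did not pass the adjusted test. At the unadjusted limit 4 of the 7 passed (57.1% against 19.7% of all genes tested), all as higher. The part of these cells in the levels of the cholesterol and fatty acid genes was not tested.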

How the data were processed

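Hearts of 4 *Dio3+/+* and 4 *Dio3-/-* fetuses were sequenced after rRNA depletion. The authors aligned the reads with Novoalign (version 2.08), kept reads that mapped uniquely, scaled the samples linearly to the one with the fewest reads, and deposited 1 row per UCSC known-gene transcript. The unit is not named in the table and was read as RPKM, which the authors' methods use for their filter. The deposited genotype means (RPKM) and coefficients of variation, each a ratio of SD to mean, are rounded to 2 decimals. The genome build is not given in the sources used here. The authors' fold changes and q values were not used in the tests.

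For each row, log2(mean + 0.5) was calculated per genotype, an SD on that scale was taken from the coefficient of variation, and limma (version 3.58.1 in R 4.3.3) moderated the variance pooled over both genotypes, which has 6 residual degrees of freedom, with a trend on the mean. The fit used summaries because the table gives no single hearts. The logarithm of a mean stands in for a mean of logarithms. P values were two-sided and adjusted by the Benjamini-Hochberg method over 32703 rows above 1 RPKM in either genotype, and the fit was tested on simulated data. Depth per sample is unknown from these values, and intervals cover the spread between hearts alone. The labels do not say which fetuses shared a litter.

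The genes and lists were chosen with earlier results of these data known. Named genes were all 32 genes and, of each further list, genes that passed or, if none did, the gene with the lowest p in each direction. A few listed genes are not reported here. *Xist*, *Eif2s3y*, *Ddx3y*, *Uty* (4 sex-linked genes, none of which passed) and *Dio3* were added after the values were seen. Alternatives were pseudocounts of 0.1 and 1, other filters, no trend, Welch's test, 1 row per gene, any row of a gene, centring on the median log2 ratio, coefficients of variation raised by 0.005 and no rows with one above 0.5. Summaries used Python 3.11.15, pandas 2.3.3 and scipy 1.17.1.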

Additional observations from a re-analysis of the deposited data

How the results depend on the processing

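The number of cholesterol and fatty acid genes that passed the adjusted test was 0 by limma and under each of the alternatives run, with unadjusted counts from 2 (Welch's test from the summaries, or centring on the median log2 ratio) to 4. The lowest adjusted p was 0.060, for another row of *Pmvk* when any row of a gene counted, and 0.0789 over the other alternatives, also for *Pmvk*. The median log2 fold change was 0.03, and -0.01 when centred, where 8 genes (*Fdps*, *Lss*, *Cyp51*, *Mvd*, *Scap*, *Srebf2*, *Fasn* and *Acly*) changed sign, none past the threshold. Of the other pathway genes, 1 passed (*Lrp8*), 2 passed without an expression filter (*Lrp8* and *Mlxipl*), with a mean above 5 RPKM (*Mecr* and *Pcyt1a*), without rows with a coefficient of variation above 0.5 (*Lrp8* and *Mecr*) or with any row of a gene (*Lrp8* and *Ptpla*), and 0 with Welch's test. Of the marker genes, 5 passed, 6 with a mean above 5 RPKM (*Hba-x* added), 3 without a filter, without the trend, when centred or with raised coefficients of variation (*Hbb-bh1* and *Lyz1* lost), and 1 with Welch's test (*Myh6*). The causes were not tested. No paired analysis was possible because the table gives genotype summaries and no value for a single heart, and for the same reason no heart could be left out. Means rounded to 2 decimals limit the values of low genes such as *Thrsp*.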
